A study of Homo sapiens with 12 samples.

Results

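MYOD1, MYF5, MYF6, MYOG, PAX3, PAX7, MEF2A, MEF2C and MEF2D, the transcription factors that set and carry out the skeletal muscle programme, were followed in RD cells. The members were the 9 genes with these symbols, found by their Ensembl identifiers among the 61552 gene identifiers of each count file. The rule used no measured value, but earlier results of these data were known when the members were chosen. Of the 9, 7 had enough counts to be tested; MYF5 and MYF6 did not.

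MYOD1, MYF5, MYF6 and MYOG are basic helix-loop-helix (bHLH) factors that pair with E proteins and bind short DNA words called E-boxes in muscle genes. MYOD1 and MYF5 commit cells to muscle, MYOG drives the later differentiation step and MYF6 (MRF4) acts mainly in later fibres. PAX3 and PAX7 mark the muscle progenitors of the embryo and the muscle stem cells of the adult, and lie upstream of the bHLH factors. MEF2 proteins bind beside the bHLH factors at many muscle promoters and strengthen their activity. Rhabdomyosarcoma cells carry this machinery but do not complete differentiation.

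RD is an established human cell line labelled as ERMS, embryonal rhabdomyosarcoma, with the genotype FN-RMS, and every value here comes from this line alone. All cells grew in RPMI medium with 10% fetal bovine serum and received small interfering RNA (siRNA) with Lipofectamine RNAiMAX. Controls had scrambled siRNA (n = 3 libraries) and the others an siRNA specific for EHMT1 (n = 3 libraries), and RNA was taken after 48 h. EHMT1, also called GLP, methylates lysine 9 of histone H3 as a partner of EHMT2 (G9a). G9a is known from other work to restrain MYOD1 activity, so the level of the muscle factors after loss of its partner is a natural comparison in this design. The series has 6 further samples, in which SOX8 was targeted; they are not analysed here.

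Libraries held 40639655 to 47258481 gene counts. EHMT1 lay at 130.1 to 155.9 CPM (counts scaled to a common library total) in the scrambled libraries and at 53.2 to 57.6 CPM with EHMT1 siRNA, so the targeted transcript was lower in each library labelled as its knockdown. On the first principal component scrambled replicate 2 stood furthest from the EHMT1 siRNA libraries, at -36.4 against -16.0 and -9.16 for the other scrambled libraries and 19.6 to 21.6 for the knockdown. Summed markers of cardiac and smooth muscle, fibroblasts, epithelium, endothelium, blood and neural cells overlapped between the groups, with 0 markers called. Fibroblast markers summed to 287.7 to 339.0 CPM with scrambled and 312.5 to 324.2 CPM with EHMT1 siRNA, COL1A1 being the highest of that set. Epithelial markers summed to 74.6 to 84.8 and 80.4 to 84.5 CPM, with KRT18 the highest. Smooth muscle markers were at 33.2 to 42.5 CPM with scrambled and 35.4 to 40.9 CPM with EHMT1 siRNA. The 4 endothelial markers together stayed under 0.852 CPM in every library. The 9 markers of skeletal muscle and rhabdomyosarcoma include the members MYOD1 and MYOG. VIM and CHRNA1 were the highest of them, and TNNT3 stayed at 0.289 to 0.757 CPM over the 6 libraries. For VIM, 72.1% of the reads assigned when strand is taken into account were missing from the unstranded counts used here. The sum of the 9 markers did not overlap between the groups, at 2296 to 2485 CPM with scrambled and 2503 to 2548 CPM with EHMT1 siRNA, with 0 called. The part of this sum in the members' values was not tested. In bulk RNA, fewer cells expressing a gene and less RNA per cell cannot be told apart.

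The regions just upstream of the genes are shown for MYOG, the differentiation factor, for PAX7, the member that rose, and for MYF5 and MYF6, the members with almost no reads. RefSeq promoter windows on GRCh38.p14 matched 8 of the 9 members, MYOD1 not among them. Each runs from 250 bases before the gene's start to 50 bases after it, 5′ to 3′ on the gene's own strand. Capitals mark E-boxes (CANNTG), a loose form of the MEF2 word (CTANNNNTA) and the MEF3 word (bound by sine oculis homeobox factors; TCAGGTT), each searched on both strands. The windows lie at chr1:203085963-203086262, minus strand (MYOG), chr1:18630596-18630895, plus strand (PAX7), chr12:80716662-80716961, plus strand (MYF5) and chr12:80707384-80707683, plus strand (MYF6).
MYOG: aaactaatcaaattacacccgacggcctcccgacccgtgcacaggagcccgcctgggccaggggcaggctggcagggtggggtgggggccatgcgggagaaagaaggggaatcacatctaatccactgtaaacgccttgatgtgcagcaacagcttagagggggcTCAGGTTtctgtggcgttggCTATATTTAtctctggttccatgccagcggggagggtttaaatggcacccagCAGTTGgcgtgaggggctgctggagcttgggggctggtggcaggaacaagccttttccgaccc
PAX7: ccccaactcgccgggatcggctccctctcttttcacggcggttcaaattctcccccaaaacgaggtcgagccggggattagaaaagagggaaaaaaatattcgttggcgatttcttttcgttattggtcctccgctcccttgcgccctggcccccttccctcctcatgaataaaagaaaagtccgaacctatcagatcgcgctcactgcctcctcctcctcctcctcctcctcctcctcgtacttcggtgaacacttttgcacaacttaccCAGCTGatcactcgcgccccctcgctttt
MYF5: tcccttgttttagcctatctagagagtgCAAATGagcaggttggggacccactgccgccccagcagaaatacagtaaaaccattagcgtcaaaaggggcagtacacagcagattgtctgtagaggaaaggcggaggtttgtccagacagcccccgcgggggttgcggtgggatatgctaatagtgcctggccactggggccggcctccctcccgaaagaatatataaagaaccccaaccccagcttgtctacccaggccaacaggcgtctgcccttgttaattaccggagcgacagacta
MYF6: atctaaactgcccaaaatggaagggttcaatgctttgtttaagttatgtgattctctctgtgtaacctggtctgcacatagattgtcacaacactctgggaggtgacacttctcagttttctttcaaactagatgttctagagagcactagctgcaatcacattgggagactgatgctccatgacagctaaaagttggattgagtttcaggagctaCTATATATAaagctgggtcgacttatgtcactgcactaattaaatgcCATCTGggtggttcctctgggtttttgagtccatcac

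The MYOG window held all 3 words in its last 85 bases before the start: TCAGGTT at 85, CTATATTTA at 65 and the E-box CAGTTG at 13 bases before it. PAX7 had 1 E-box, CAGCTG, at base 22 of the transcript, and none of the other words. MYF6 had CTATATATA 34 bases before the start and an E-box after it, and MYF5 had a single E-box 222 bases before. Among all 35116 windows of this length, 68.7% held CANNTG, 18.0% held CAGCTG, 16.4% held CTANNNNTA and 3.37% held TCAGGTT. An E-box was thus common in promoters at large, and the MEF3 word was the least common of the 4. A match to a word is a description of the sequence and does not show binding.

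To place the members on 1 scale, CPM was divided by exon length. MYOD1 was the most abundant, at 78.2 to 94.4 CPM per kb over the 6 libraries (mean 85.0 ± 5.77, SD), above 97.4% of the 13711 protein-coding genes tested. MYOG came next, at 27.4 to 35.4 CPM per kb (mean 30.9 ± 3.38), followed by MEF2D, at 15.0 to 18.0 CPM per kb. On this scale of levels MYOG lay above 90.1% and MEF2D above 79.2% of those genes. Next were PAX7 at 8.71 to 11.3 and MEF2A at 6.07 to 6.45 CPM per kb. MEF2C (2.46 to 2.81) and PAX3 (2.38 to 2.72) overlapped, and with the longest transcript as the length their order turned, with means of 4.14 and 6.32 CPM per kb. Each other neighbouring pair among the 7 tested members was separated in all 6 libraries. The plot of levels per exon length shows this order.

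**Figure D1:**
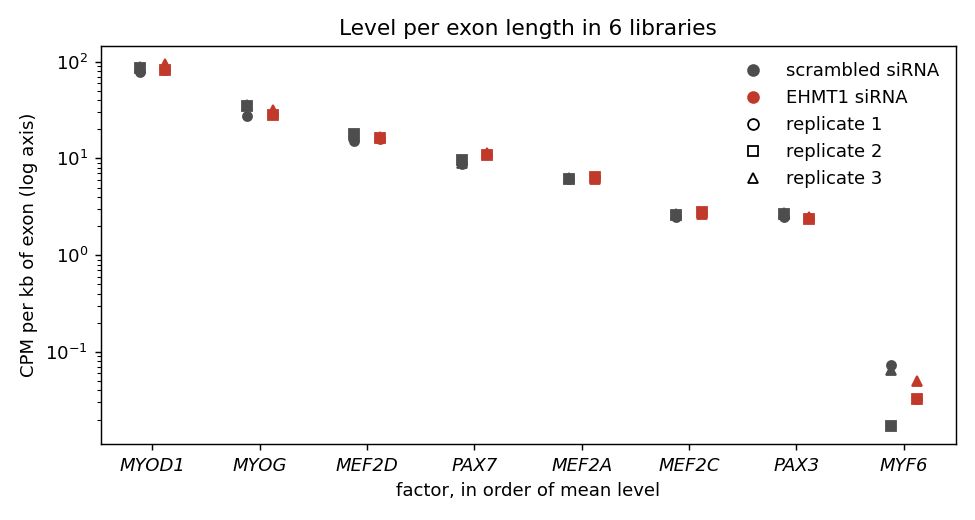
Level of 8 factors in CPM per kb of exon (log axis), with 1 point per library: grey for scrambled and red for EHMT1 siRNA, and circle, square and triangle for replicates 1, 2 and 3. MYOD1 lies highest at 78.2 to 94.4 CPM per kb and MYF6 lowest at no more than 0.0729; MYF5, at 0 counts, is not drawn.

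Muscle bHLH genes were thus unevenly used in RD cells. MYF5 had 0 counts in all 6 libraries, so its level could still reach what 3 counts are worth, 0.0641 to 0.0751 CPM depending on the library (counting error only). MYF6 had 5, 1 and 4 counts in scrambled replicates 1, 2 and 3 and 2, 2 and 3 counts in the EHMT1 siRNA libraries. Both genes stayed at or near this floor in both groups, and no fold change is given for them.

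With EHMT1 siRNA, 1 of the 7 tested factors rose and 0 fell (edgeR quasi-likelihood test, adjusted p under 0.05). Over all 18646 genes tested the same rule gave 12.4%, with 5.81% higher and 6.54% lower, so 1 in 7 is close to what the table shows at large. PAX7 was the gene that rose. At an unadjusted edgeR p under 0.05 the count was also 1 of 7, beside 4774 of all 18646 genes. With adjusted p, DESeq2 and limma-voom each gave 1 risen and 0 fallen. The groups of libraries did not overlap for 2 of the 7 members, PAX7 and MEF2C, against 30.9% of all genes tested. The median log2 change of the 7 was 0.03, and that of all genes tested 0.00.

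**Figure D2:**
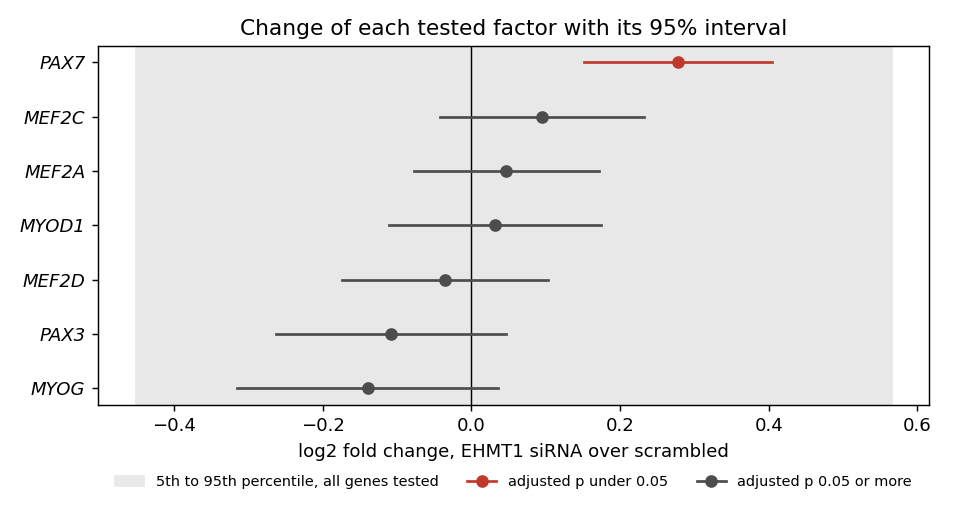
Log2 fold change of each tested factor with its 95% interval from edgeR; red marks an adjusted p under 0.05, and the grey band spans the 5th to the 95th percentile of all genes tested (-0.45 to 0.57). PAX7 at 0.28 is the one interval that does not cross 0. It lies inside this band, and just above that of genes whose log2 CPM averaged 3 or more (-0.31 to 0.27).

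PAX7, the paired-box factor of muscle stem cells, had 2574, 2441 and 2414 counts with scrambled siRNA and 2955, 2830 and 2929 with EHMT1 siRNA. In CPM this was 55.0, 61.1 and 56.8 in scrambled replicates 1, 2 and 3, and 69.9, 68.2 and 71.5 in the knockdown. Every knockdown library was above every scrambled one, with a gap of 7.11 CPM between the nearest pair. The mean went from 57.7 ± 3.13 to 69.9 ± 1.65 CPM (SD, n = 3 each). On the log2 scale PAX7 rose by 0.28 (SE 0.060; adjusted p = 0.0058, edgeR), or 1.21-fold with a 95% interval of 1.11 to 1.32. Ranked by p, PAX7 was gene 763 of the 18646. Permuting the libraries exactly, two-sided, returned p = 0.1, the smallest value that 3 against 3 allow. Without EHMT1 siRNA replicate 3 the log2 change was 0.26 with an edgeR adjusted p of 0.0531, so the call was narrowly lost. Without EHMT1 siRNA replicate 1 or 2 the edgeR adjusted p was 0.0379 and 0.033. Leaving out scrambled replicate 2, the library that stood apart, gave a log2 change of 0.32 with an edgeR adjusted p of 8.21e-05.

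PAX3, the close relative of PAX7 that acts earlier in the embryo, had a difference of the opposite sign that did not pass the test. Its CPM was 19.6, 21.2 and 21.6 with scrambled siRNA and 19.2, 18.9 and 19.8 with EHMT1 siRNA. The groups overlapped only through scrambled replicate 1, which lay just under the highest knockdown library. Means were 20.8 ± 1.09 and 19.3 ± 0.426 CPM (SD, n = 3 each). Their log2 difference was -0.11 (SE 0.073; adjusted p = 0.386, edgeR), with an interval of 0.833- to 1.03-fold.

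The ratio of PAX7 to PAX3 within a library does not depend on how libraries are scaled. Its size does depend on the length used for each gene. Over the 6 libraries PAX3 averaged 2.52 CPM per kb of exon and 6.32 with the longest transcript, and PAX7 10.1 and 11.5. Per kb of exon the ratio was 3.54, 3.62 and 3.31 in scrambled replicates 1, 2 and 3, and 4.59, 4.53 and 4.55 with EHMT1 siRNA. The knockdown libraries thus shared nearly 1 value, and the mean went from 3.49 ± 0.160 to 4.56 ± 0.0274 (SD, n = 3 each; exact two-sided permutation p = 0.1, the smallest possible). PAX7 relative to MYOD1 was 0.111, 0.112 and 0.103 with scrambled siRNA and 0.136, 0.132 and 0.120 in the knockdown, again with no overlap. MYOD1 relative to MYOG was 2.85, 2.51 and 2.47 against 2.85, 2.89 and 3.01, so replicate 1 of each group had the same value at this precision. These pairs were picked after the members' values were known.

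**Figure D3:**
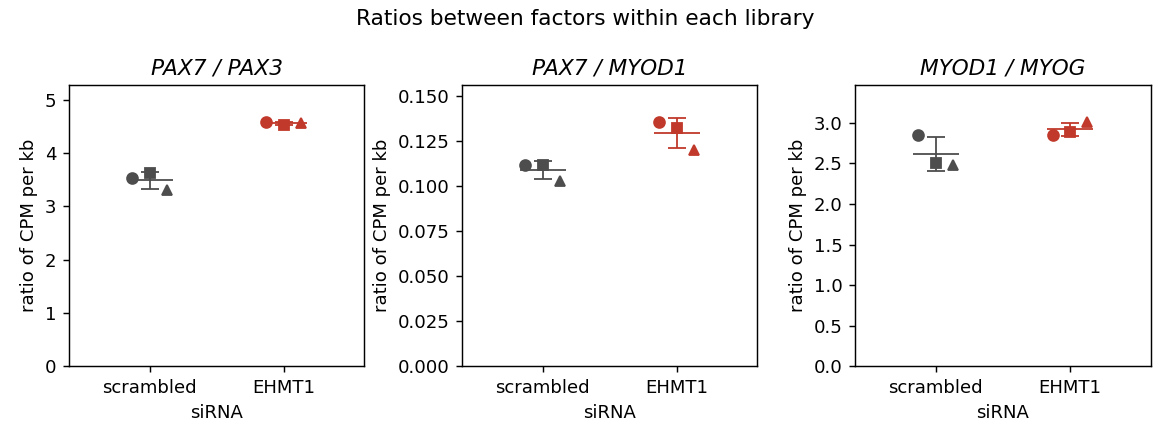
Ratios of CPM per kb between pairs of factors, with 1 point per library (circle, square and triangle for replicates 1, 2 and 3) and the mean with its SD (n = 3). PAX7 to PAX3 lies at 3.31 to 3.62 with scrambled and 4.53 to 4.59 with EHMT1 siRNA; MYOD1 to MYOG meets at 2.85 in replicate 1 of both groups.

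MYOD1, the factor that can turn other cell types into muscle, was at 140.8, 155.9 and 157.6 CPM with scrambled siRNA. With EHMT1 siRNA it was at 147.0, 147.2 and 170.04 CPM. The groups interleave, and the highest library of all was EHMT1 siRNA replicate 3. Means were 151.4 ± 9.28 and 154.8 ± 13.2 CPM (SD, n = 3 each). The log2 difference was 0.03 (SE 0.068; adjusted p = 0.823, edgeR). The 95% interval of 0.926- to 1.13-fold gives the range of differences these libraries allow, and a missed threshold does not show that there was none. Its sign turned without scrambled replicate 1 (-0.02) and without EHMT1 siRNA replicate 3 (-0.04).

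MYOG (myogenin), the bHLH factor of the differentiation step, was at 41.9, 52.7 and 54.0 CPM with scrambled siRNA and 43.7, 43.2 and 47.9 CPM in the knockdown. The wider spread was in the controls, where replicate 1 was the lowest library of the 6 and replicates 2 and 3 the highest. The mean went from 49.5 ± 6.66 to 44.9 ± 2.53 CPM (SD, n = 3 each). This is -0.14 on the log2 scale (SE 0.083; adjusted p = 0.315, edgeR), with an interval of 0.804- to 1.03-fold. A single control library decided the call. Without scrambled replicate 1 the log2 change was -0.25 and passed the test (edgeR adjusted p = 0.0202).

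**Figure D4:**
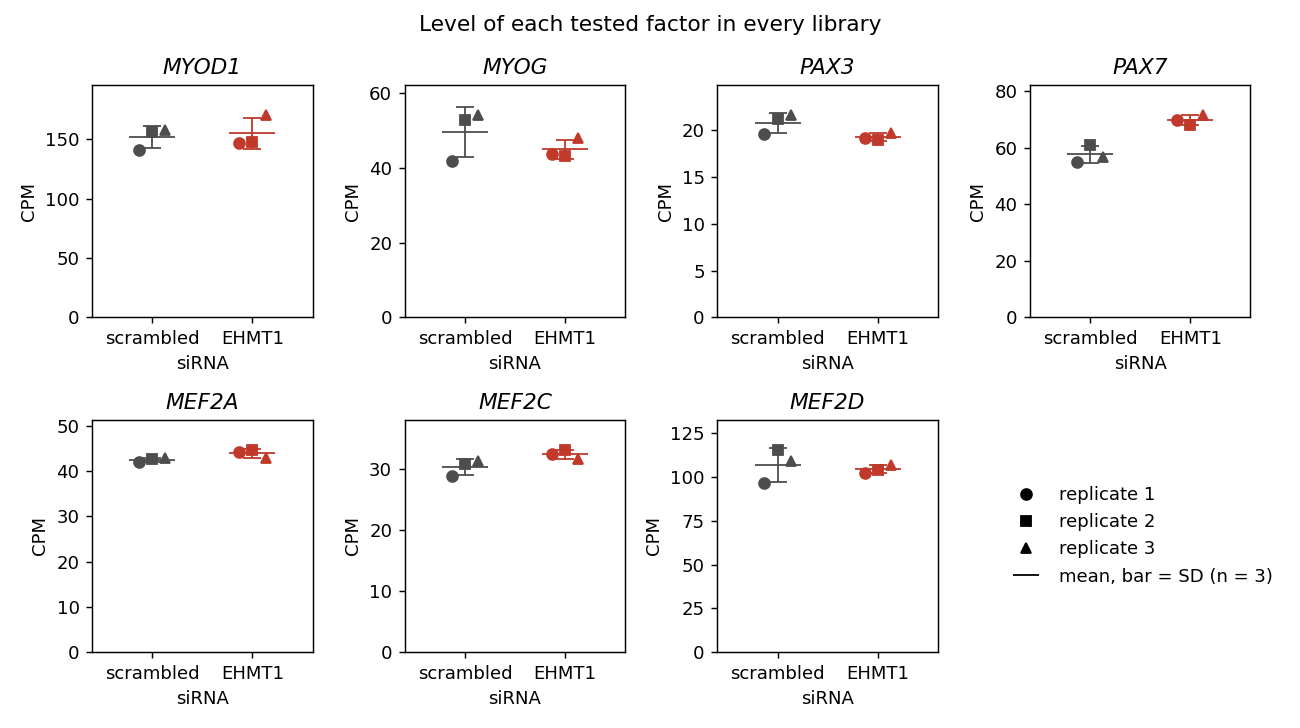
CPM of the 7 tested factors in every library (circle, square and triangle for replicates 1, 2 and 3), with the mean and SD (n = 3); axes start at 0. PAX7 has a gap of 7.11 CPM between the groups, 55.0 to 61.1 against 68.2 to 71.5 CPM, MEF2C a gap of 0.390 CPM, and scrambled replicate 1 (grey circle) is the lowest control in all 7 panels.

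Scrambled replicate 1 was the lowest of the 3 scrambled libraries for each of the 7 tested members. Among the 10216 genes whose log2 CPM averaged 3 or more it was the lowest for 28.3%. The controls also varied more than the knockdown libraries in 5 of the 7 members, MYOD1 and MEF2A being the exceptions: the coefficient of variation of MYOG was 13.5% with scrambled and 5.63% with EHMT1 siRNA, and that of MEF2D 9.07% and 2.21%. This was not particular to the members: over all genes the chi-square per degree of freedom was 9.07 to 21.5 between pairs of scrambled libraries and 2.99 to 3.39 between pairs of EHMT1 siRNA libraries.

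MEF2 factors work as partners of the bHLH factors, and none of the 3 tested passed the test. MEF2D, the most abundant of them per length, was at 96.2, 115.3 and 108.9 CPM with scrambled and 101.9, 104.1 and 106.5 CPM with EHMT1 siRNA. All 3 knockdown libraries lay inside the range of the controls. The log2 difference was -0.04 (SE 0.065; adjusted p = 0.791, edgeR), with an interval of 0.887- to 1.07-fold, and its sign turned without scrambled replicate 2 (0.02).

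MEF2A was the steadiest member, at 42.1, 42.6 and 42.9 CPM with scrambled and 44.3, 44.7 and 42.8 CPM in the knockdown. Of the knockdown libraries, replicate 3 lay within the control range. Its log2 difference was 0.05 (SE 0.059; adjusted p = 0.678, edgeR), with an interval of 0.948- to 1.13-fold. MEF2C, the family member most tied to muscle and heart development, was at 28.9, 30.8 and 31.2 CPM and then 32.4, 33.1 and 31.6 CPM. Its groups did not overlap, by a gap of 0.390 CPM, a separation that 30.9% of all genes showed, and it did not pass the test. The log2 difference was 0.09 (SE 0.065; adjusted p = 0.394, edgeR), with an interval of 0.971- to 1.17-fold.

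Within the family, MEF2D made up 65.6 ± 1.73% of the summed MEF2A, MEF2C and MEF2D level per kb with scrambled siRNA and 64.1 ± 0.938% with EHMT1 siRNA (SD, n = 3 each). MEF2A held 25.8, 23.0 and 24.0% and then 25.5, 25.3 and 24.2%. MEF2C held 10.2 ± 0.338% and 10.8 ± 0.263%. The shares of MEF2A and MEF2D overlapped between the groups and that of MEF2C did not (exact two-sided permutation p = 0.1). Shares also depend on the length used, as MEF2C averaged 2.67 CPM per kb of exon and 4.14 with the longest transcript. MEF2B, the remaining family member, averaged 0.121 and 0.177 CPM and was not tested.

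Strand counts describe what else could be in these values. In the second strand column lay 85.1 to 88.0% of the strand-assigned reads of MYOD1, 87.8 to 91.8% for MYOG, 90.5 to 93.3% for PAX7 and 95.4 to 97.8% for MEF2A and MEF2C, with 87.1 to 89.0% over all genes. MEF2A shares 770 exonic bases with LYSMD4 on the opposite strand, and MEF2C shares 422 with MEF2C-AS1 and 208 with MEF2C-AS2 in GENCODE 29. Of their strand-assigned reads, 8.94% of those of MEF2A and 11.5% of those of MEF2C were missing from the unstranded column used here. In the second strand column alone the log2 changes were 0.06 for MEF2A, 0.08 for MEF2C and 0.29 for PAX7 (edgeR adjusted p = 0.0032 for PAX7). The first strand column, with few reads, gave PAX7 a log2 change of 0.16 (adjusted p = 0.707) and PAX3 a log2 change of 0.09, the opposite sign.

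By likeness over the 6 libraries, the genes closest to PAX7 were RHBDF1, STX1A and NIT1. Pearson's r of log2 CPM was 0.998, 0.997 and 0.997 among 9865 protein-coding genes compared, of which 224 had r above 0.95. The points share their libraries and the step between the groups, so these values describe a common rise and no more. RHBDF1, an inactive rhomboid protein, rose by 0.43 on the log2 scale (adjusted p = 0.000667, edgeR), STX1A, a syntaxin of vesicle fusion, by 0.45 and NIT1 by 0.23. NIT1's call was lost without scrambled replicate 1 or 3 or any 1 EHMT1 siRNA library.

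Sine oculis homeobox proteins and their EYA partners act above and beside MYOD1 and MYOG. Of 8 tested genes of these families and of DACH, 1 fell and 0 rose, 12.5%, beside 12.4% of all genes. SIX5 was the one that fell, at -0.53 (edgeR adjusted p = 0.035), from 4.08, 5.38 and 4.76 CPM to 2.67, 3.30 and 3.88 CPM, a call lost without scrambled replicate 2 or 3 or EHMT1 siRNA replicate 1 or 2. Of the strand-assigned reads of SIX5, 79.4% were missing from the unstranded column. EYA4 was at -0.17, EYA3 at 0.10, EYA2 at -0.69 and EYA1 at 0.06, none of which passed.

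E proteins, which the bHLH factors need as partners, were listed together with genes taken as inhibitors of the bHLH factors. Of 19 tested genes of this list, 3 fell and 0 rose, 15.8% called beside 12.4% of all genes. ID3 and ID1, which bind E proteins and so keep MYOD1 and MYOG off the DNA, fell. ID3 was at 132.8, 113.5 and 113.3 CPM and then 90.3, 83.3 and 94.8 CPM (log2 change -0.42, edgeR adjusted p = 0.000852). ID1 was at 55.1, 42.0 and 39.3 CPM and then 32.3, 27.8 and 33.3 CPM (log2 change -0.55, adjusted p = 0.00382). TCF4, an E protein, also fell, at -0.20 (adjusted p = 0.0281), a call lost without scrambled replicate 1 or 3 or any 1 EHMT1 siRNA library. The E proteins TCF3 and TCF12, named after their values were seen, were at -0.17 and -0.05 without passing (edgeR adjusted p = 0.132 and 0.643). ZBTB18 at 0.17, HES1 at -0.31 and TWIST1 at -1.22 did not pass with the main settings (ZBTB18 did with upper quartile scaling), TWIST1 from a mean of 0.545 and 0.232 CPM. ID2, of the same family as ID1 and ID3 and named after its value was seen, was at 0.25 without passing (means of 8.35 and 9.93 CPM). The list's median log2 change was -0.08.

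Regulators and cofactors of MEF2 had 0 of 20 tested genes called in either direction (edgeR, and 0 with DESeq2), beside 12.4% of all genes. At an unadjusted edgeR p under 0.05 there were 2, beside 4774 of all 18646 genes tested. HDAC9, a class IIa deacetylase that holds MEF2 in check, was at 0.29 (adjusted p = 0.0856), MAPK14, the p38 kinase that activates MEF2, at 0.14, HDAC7 at 0.13 and PPP3CA, a calcineurin subunit, at 0.11. VGLL2 was at -0.11 and SIK1 at 0.36, also without passing. Leaving out scrambled replicate 2 gave 1 risen and leaving out scrambled replicate 1 gave 2 fallen genes of this list.

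Downstream, 8 of 35 tested differentiation targets of the myogenic factors rose and 0 fell, 22.9% called beside 12.4% of all genes, with a median log2 change of 0.11. CHRNG, the fetal subunit of the acetylcholine receptor, was at 8.83, 8.91 and 8.76 CPM and then 14.4, 16.3 and 16.6 CPM, a rise of 0.83 on the log2 scale (adjusted p = 1.32e-05, edgeR). Of its strand-assigned reads 64.0% were missing from the unstranded column. The receptor genes CHRND (0.41) and CHRNB1 (0.23) also rose, as did MYL1 (0.59) and MYL4 (0.90), which encode myosin light chains, and the troponin genes TNNI1 (0.45), TNNT2 (0.62) and TNNC2 (0.64). TNNT2 lost its call without EHMT1 siRNA replicate 1 or 3. TNNC2 and CHRNB1 were named after their values were seen. DES at -0.06, ACTC1 (cardiac alpha-actin) at -0.05 and CDH15 (M-cadherin) at -0.04, also named afterwards, lay close to 0. Other targets, named afterwards too, had negative values that did not pass: CKM (muscle creatine kinase) at -0.50, CDKN1C (a cell cycle inhibitor) at -0.32, MYH3 (embryonic myosin) at -0.26 (adjusted p = 0.0566, edgeR) and ATP2A1 (a calcium pump) at -0.19. The groups did not overlap for the last 3 of these. Leave-one-out fits gave between 6 and 12 risen targets, and 4 fallen ones without scrambled replicate 1. With the replicate number as a block, 12 rose and 2 fell. In the list plot these rises stand to the right, while the points of MYOD1, MYOG and the MEF2 genes stay near 0.

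**Figure D5:**
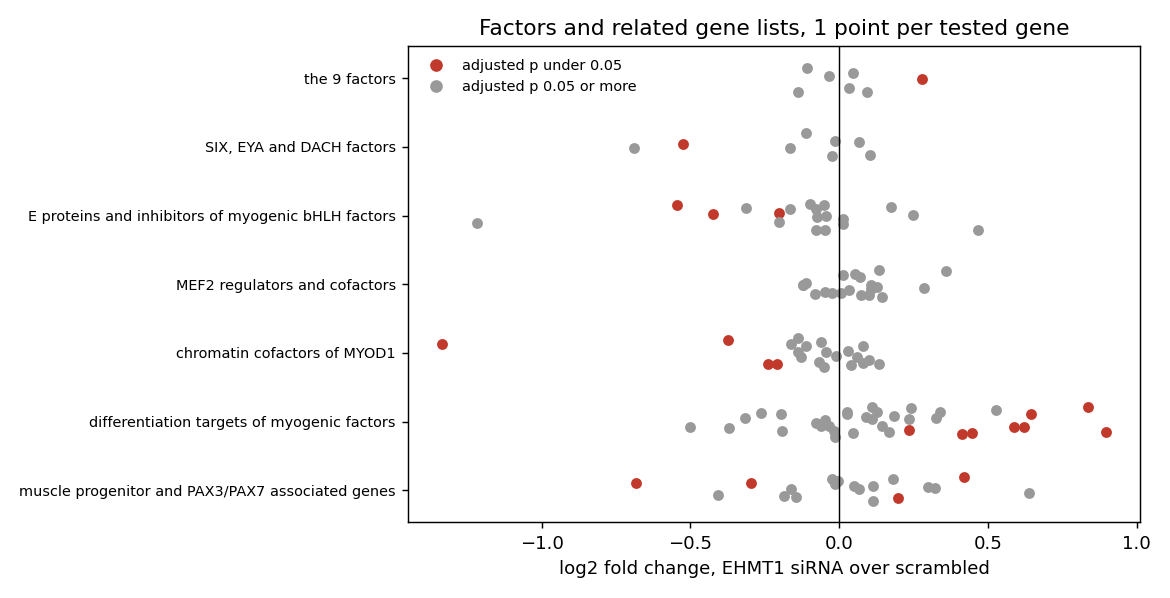
Log2 fold change of every tested gene of the 9 factors and of 6 related lists, with 1 point per gene and red for an adjusted p under 0.05 (edgeR); height within a row is random. Among the factors PAX7 at 0.28 is red, and among differentiation targets 8 of 35 genes are red, all above 0.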

How the data were processed

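Poly-A RNA of RD cells was read as 1 library per sample. Each deposited file gives the authors' unnormalized read counts for every gene 3 times, unstranded and on either strand, per the files' layout. The submitters' processing notes list CASAVA, bcl2fastq, STAR 2.5, HTSeq 0.6.1 and the build hg19. The annotation is not given in the sources used here, so the only coordinates printed are those of the RefSeq promoter windows on GRCh38.p14. Symbols came from a table of gene names, and lengths from GENCODE 29.

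The members and lists were chosen with earlier results of these data known. Counts of the unstranded column were fitted over all genes with edgeR 4.0.16 (R 4.3.3), using TMM scaling after filterByExpr at a minimum count of 10, a robust quasi-likelihood F test on group, Benjamini-Hochberg adjustment over 18646 genes, threshold 0.05. CPM uses TMM library sizes. SE is the absolute log2 change over the square root of F, and intervals are at 95%. The script was tested on simulated data. Reads naming no gene (20.0 to 21.2%) were left out.

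All 9 members were named, with up to 6 tested genes of each list by smallest p and the 3 genes most correlated with a called member. The values of 1 list gene are not reported here. No label says whether replicates came from separate cultures; p-values therefore measure only the spread between these libraries, which may be technical. Alternatives were other size factors and filters, DESeq2 1.42.0, limma-voom (3.58.1), a replicate block, each strand column, a threshold of 0.01 and each library left out.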

Additional observations from a re-analysis of the deposited data

How the results depend on the processing

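Over 15 alternatives PAX7 kept its direction in all and passed the test in 13, with log2 changes of 0.16 to 0.32. The exceptions were the first strand column and the fit without EHMT1 siRNA replicate 3, each of which left 0 members risen. The first strand column holds the minority of reads, as 87.1 to 89.0% of strand-assigned reads lay in the second. Leaving out 1 library gave 0 to 1 members risen and 0 to 1 fallen, the fallen one being MYOG without scrambled replicate 1. Signs turned with 1 library left out for MYOD1 (-0.042 to 0.066), MEF2D (-0.108 to 0.017) and EYA1 (-0.018 to 0.121), and in the first strand column for PAX3 (0.089); none of these passed the test. The cause was not tested.

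Over all genes, 1084 rose and 1220 fell; the first strand column gave 90 and 87, an adjusted p under 0.01 gave 492 and 525, and leaving out 1 library gave 452 to 1625 and 484 to 1923, most without scrambled replicate 2. Same-numbered replicates deviated together only weakly (correlations 0.042, 0.0067 and 0.021). Each EHMT1 siRNA library correlated best with its own number, while scrambled replicate 2 correlated best with EHMT1 siRNA replicate 3 (0.017). These values do not settle whether the numbers pair the libraries. With a replicate block 1474 genes rose and 1632 fell and PAX7 was at 0.28; the progenitor list went from 2 to 5 risen, and the differentiation targets from 8 risen and 0 fallen to 12 and 2.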

Other observations

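Genes linked to muscle progenitors and to PAX3 and PAX7 moved in both directions beside the rise of PAX7. Of 19 tested, 2 rose and 2 fell, 21.1% called beside 12.4% of all genes. CD82, a tetraspanin of muscle stem cells, was at 92.9, 93.1 and 102.0 CPM and then 129.0, 124.8 and 131.5 CPM (log2 change 0.42, edgeR adjusted p = 0.000191). MET, the receptor of hepatocyte growth factor and a PAX3 target in the embryo, rose by 0.20 (adjusted p = 0.0431), a call lost without scrambled replicate 2 or 3 or any 1 EHMT1 siRNA library. NOTCH3 at -0.68 and SDC4, a syndecan, at -0.30 fell, SDC4 not without EHMT1 siRNA replicate 2 or 3. SDC3 at -0.19 and ITGA7 at 0.18 did not pass. FGFR4, a known PAX3 and PAX7 target named after its value was seen, was at 146.8 and 151.8 mean CPM. Leave-one-out fits gave between 1 and 4 genes in either direction. Of the strand-assigned reads of CD82, 17.2% were missing from the unstranded column.

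Chromatin cofactors of MYOD1 had 4 of 21 tested genes that fell and 0 that rose, 19.0% called beside 12.4% of all genes. EHMT1, the siRNA's own target, at -1.34 is one of them, which leaves 3 of 20. These were PARP1 at -0.37, EZH2, the Polycomb methyltransferase that silences muscle genes in myoblasts, at -0.24 and EHMT2 at -0.21, with 24.2% of the strand-assigned reads of EHMT2 missing from the unstranded column. CHD2 at 0.13 and SMARCB1 at -0.14 did not pass. Calls of EHMT2 were lost without any 1 EHMT1 siRNA library and that of EZH2 without EHMT1 siRNA replicate 2 or 3, and 2 to 4 genes of the list fell with 1 library left out.

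Promoter windows of the differentiation targets, 29 in the RefSeq table, held CAGCTG in 34.5% and CTANNNNTA in 37.9%, against 18.0% and 16.4% of all windows. The 16 windows of the members held them in 25% and 37.5%; several of these belong to the same gene, MEF2C with 7 and MEF2A with 3.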
